A study of Mus musculus with 8 samples.

Results

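Inhibitory receptors of CD8+ T cells were followed in their transcripts over single tumour-infiltrating cells. The group was fixed by name and has 8 genes of the 32285 measured, namely Pdcd1, Havcr2, Lag3, Tigit, Ctla4, Cd160, Entpd1 and Cd101. All 8 were detected in every library and passed the filter on low counts in every comparison below, so that none was set aside.

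When T cells meet their antigen for a long time, as in a growing tumour, they enter a state called exhaustion, in which cytokine release and proliferation decline and several inhibitory receptors are carried at once. Pdcd1 encodes PD-1, which binds PD-L1 and PD-L2 and recruits the phosphatase SHP-2 to dampen signalling through the T cell receptor and CD28. Havcr2 encodes TIM-3, Lag3 a CD4-like receptor for MHC class II and FGL1, and Tigit a receptor for PVR that competes with the activating receptor CD226. Ctla4 encodes a receptor that competes with CD28 for CD80 and CD86, and it is induced when T cells are activated. Cd160 encodes a receptor for HVEM that is also known from natural killer cells, Entpd1 encodes CD39, an ectoenzyme that degrades extracellular ATP, and Cd101 a surface protein used as a marker of late exhaustion. Exhausted cells are known to include a Tcf7-expressing precursor pool that keeps PD-1 and lacks TIM-3, from which TIM-3-positive cells arise.

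The cells were CD90.1+ OT-I T cells, CD8+ cells with an ovalbumin-specific receptor from Cas9 knock-in mice (OT-I:Rosa26-Cas9), transduced with a lentiviral CRISPR library against metabolic genes. They were injected into Rosa26-Cas9 mice of either sex with orthotopic KPC_OVA tumours, a mouse pancreatic ductal adenocarcinoma (PDAC) line made to express ovalbumin, and were sorted from the primary tumour 7 days later. Mice received anti-PD-1 from the day of transfer (3 libraries) or control IgG (1 library), so that all groups share the OT-I receptor, Cas9, the guide library and the tumour, and cells with a nontargeting guide (sgNT) are the controls within each library. CROP-seq read the transcripts and the guide of each cell by 10x 3' sequencing, with 1 gene expression and 1 guide library per channel. The anti-PD-1 libraries are called replicates 1, 2 and 3. Replicates 1 and 2 carry the same name in the labels with numbered endings. The study reports a pair of independent experiments and more mice per treatment than libraries, and its methods mention a correction between a pair of batches. Which mice and which batch each library holds is not stated, so that every p-value below measures the spread between libraries, which may be technical. None of the 8 genes was a target of the CRISPR library.

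Of 56359 cell barcodes, 23059 with exactly 1 called guide passed the filters, 2535, 2597 and 6432 in replicates 1, 2 and 3 and 11495 in IgG. The kept cells held 48182760 to 88543446 UMIs per library, and their median depth was 16829, 16325 and 12084 UMIs with anti-PD-1 and 6329 with IgG. Libraries shared 3 to 18 cell barcodes per pair. Replicates 1 and 2 differed by more than counting noise, their chi-square over genes being 15.5 times its degrees of freedom (53.6 to 154 times for other pairs), which 2 channels of 1 pool of cells could do as well. They were kept as separate samples because the labels list them so. The cells matched their label, with 727 to 902 CPM (UMIs per 1e+06 UMIs) of Cd3e and 643 to 908 of Cd8a, at most 0.124 CPM of Cd4 and at most 1.13 of Foxp3. B or plasma cell markers summed to 145 CPM in replicate 3 and to 8.42 to 9.35 elsewhere. Of the 6 genes of that list, 3 were under 1 CPM in every library.

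The 8 receptors fell into an abundant set and a scarce set (the plot of levels by library). Levels are CPM of UMIs summed over the cells of a library, and since 3' sequencing counts 1 tag per transcript, they were compared between genes without scaling by length. Shares of cells were taken after each cell was thinned to 3000 UMIs, which left out 36 cells of replicate 3 and 611 of IgG. Pdcd1 had 273, 271 and 341 CPM in the anti-PD-1 replicates, in order, and 283 CPM in IgG. Cd160 was the steadiest, with 236, 258 and 266 CPM with anti-PD-1 and 270 with IgG, a highest library 1.14 times the lowest. Lag3 had 232, 236, 340 and 285 CPM in the same order. With a mean over the 4 libraries of 292 CPM ± 33.1 (SD) for Pdcd1, 273 ± 50.6 for Lag3 and 258 ± 15.2 for Cd160, these 3 neighbours overlapped in their spread over libraries. Within each library Pdcd1 was above Cd160, while Lag3 changed places with both.

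Ctla4, the receptor for CD80 and CD86, had 349 and 331 CPM in replicates 1 and 2 and 133 and 105 CPM in replicate 3 and IgG. It was thus the most abundant of the 8 in replicates 1 and 2 and the fifth in the others, and no other member spread as widely (3.32-fold between libraries). Havcr2 followed with 140, 131, 204 and 162 CPM. These 5 genes were above 100 CPM in each library, and the ranges of Ctla4 overlapped with those of all 4 others.

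The other 3 were scarcer. Entpd1, the ATP-degrading enzyme, had 37.5, 35.9, 72.8 and 57.2 CPM, Cd101 had 11.6, 9.75, 20.3 and 18.2 CPM, and Tigit 13.6, 11.6, 11 and 10.2 CPM. Entpd1 lay under Havcr2 and above the last 2 in every library, while Cd101 and Tigit changed places between libraries. For Tigit the lowest library was IgG, whereas for Entpd1 and Cd101 the lowest were replicates 1 and 2. Thinned to 3000 UMIs, a Pdcd1 transcript was found in 54.8% ± 3.02 of the cells (SD, n = 4 libraries), Lag3 in 51.8% ± 5.67, Cd160 in 46.9% ± 1.81, Ctla4 in 39.7% ± 16.5, Havcr2 in 34.2% ± 4.59, Entpd1 in 13.3% ± 5.16, Cd101 in 4.63% ± 1.64 and Tigit in 3.5% ± 0.327. These shares depend on depth. Without thinning, Pdcd1 was found in 93.7% of the cells of replicate 1 (exact Clopper-Pearson 95% interval 92.7 to 94.6, counting error only). In the few barcodes with tumour stroma markers and no T cell transcripts, 2 to 5 per library with a median of 880 to 13274 UMIs, the 8 genes together gave 1 or 2 UMIs per library, so that free RNA could be gauged from few barcodes only. Fewer cells with a transcript and less transcript per cell cannot be told apart in the summed levels.

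**Figure D1:**
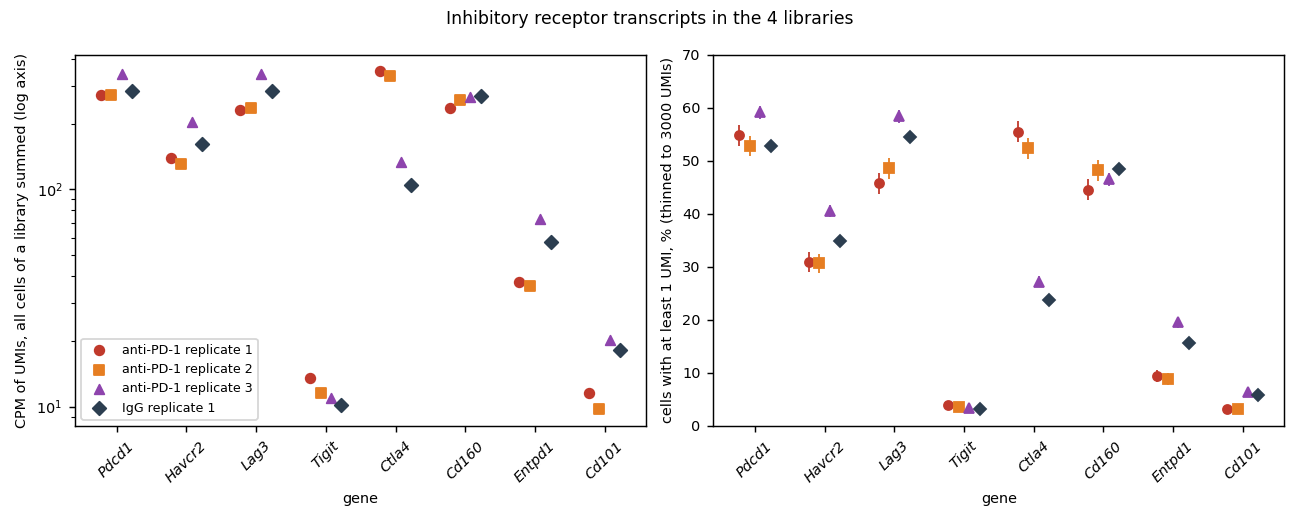
Levels of the 8 receptor transcripts in each of the 4 libraries, as CPM of summed UMIs on a log axis (left) and as the percentage of cells with a UMI at 3000 UMIs per cell, with exact 95% intervals (right), each point being a library. Ctla4 splits into 331 to 349 CPM in replicates 1 and 2 and 105 to 133 CPM in replicate 3 and IgG, while Cd160 spans 236 to 270 CPM.

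To ask whether the antibody against PD-1 changed the receptors' transcripts, the 3 anti-PD-1 libraries were compared with IgG. No member passed the test (0 of 8 by edgeR's quasi-likelihood test, where 0% of 13810 genes were called at an adjusted p of 0.05, and 0 of 8 by DESeq2, which called 5 genes). At an unadjusted p under 0.05 there were 0 members and 282 genes. For Ctla4 the log2 fold change was 1.39 ± 0.58 (SE, adjusted p = 0.99), with 349, 331 and 133 CPM under anti-PD-1 and 105 under IgG. The other 7 lay between -0.37 ± 0.39 (Cd101) and 0.25 ± 0.17 (Tigit). Pdcd1 itself, whose protein is the target of the antibody, was at 0.07 ± 0.17. With the name that replicates 1 and 2 share as a term, which leaves replicate 3 against IgG, 283 genes but again 0 members were called, and Ctla4 moved to 0.35 (adjusted p = 0.25), Entpd1 from -0.22 to 0.35 (adjusted p = 0.12), Havcr2 from -0.02 to 0.34 (adjusted p = 0.25) and Lag3 from -0.07 to 0.25 (adjusted p = 0.71). With 1 IgG library the smallest p of an exact permutation test is 0.25. On simulated counts of this design the fit recovered 56% of 2-fold changes and 12% of 1.5-fold changes. Those counts gave every gene the same spread and held no split between libraries, so that recovery in the real libraries may be lower.

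The call depended on replicate 3. Without it 4 members were called, Ctla4 at 1.72 and Tigit at 0.32 as higher with anti-PD-1, Entpd1 at -0.62 and Cd101 at -0.75 as lower, while 3316 genes passed over all. That contrast sets replicates 1 and 2, which share a name in the labels, against a library with another name, so that treatment and name cannot be told apart there. Replicate 3 has a name of its own as well, and its Ctla4 level was 133 CPM against 105 in IgG.

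Replicates 1 and 2 were therefore set against replicate 3 and IgG, a comparison added after Ctla4 was seen to split these libraries. The levels of the other members, with Entpd1 and Cd101 lowest in replicates 1 and 2, had been seen as well. All values of this split are therefore descriptions, and their adjusted p do not test a split chosen beforehand. Of the other 7 members 4 were called, where 29% of 13275 genes were. Ctla4 was higher in replicates 1 and 2 by a log2 fold change of 1.54 ± 0.10 (SE), or 2.91-fold. Entpd1 was lower at -0.80 ± 0.10 (adjusted p = 0.00014) and Cd101 at -0.82 ± 0.10 (adjusted p = 8.8e-05). Both were called with any library left out, and Ctla4 lay at 1.37 to 1.72.

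Havcr2 (-0.41, adjusted p = 0.0093) and Lag3 (-0.39, adjusted p = 0.0082) were lower as well, and neither call held without replicate 1, 2 or 3 (adjusted p between 0.053 and 0.12). Without replicate 1 or 2 the values were about as large (-0.43 and -0.39 for Havcr2, -0.35 and -0.43 for Lag3), and without replicate 3 they were -0.23 and -0.26. Tigit was at 0.27 (adjusted p = 0.051), Pdcd1 at -0.17 and Cd160 at -0.09. Ctla4 thus stood opposite to Entpd1, Cd101, Havcr2 and Lag3 between these libraries. Trac, the constant region of the T cell receptor alpha chain, split the same libraries, with 1920 and 1770 CPM in replicates 1 and 2 and 798 and 700 in replicate 3 and IgG, and its part in these differences was not tested. Nor was that of the depth per cell, with medians of 16829, 16325 and 12084 UMIs in replicates 1, 2 and 3 and 6329 in IgG. With all clusters given equal weight the same 4 members were called beside Ctla4 (1.63), with Cd101 at -0.71, Entpd1 at -0.66, Lag3 at -0.38 and Havcr2 at -0.32.

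To see in which cells the receptors were carried, cells were clustered on other genes, leaving out the 8 members and most genes of the related pathways. The clusters were made from the same cells, although not from these genes. Of 9 clusters, 7 took a name from marker genes. The largest was granzyme-high-like (7646 cells, led by Gzmc and Spp1), followed by proliferating G1/S-like (3885), histone S phase-like (3549), proliferating G2/M-like (1927), precursor exhausted-like (1589), effector memory-like (757) and interferon response-like cells (114). Cluster 3 (3238 cells) stayed unnamed, since its leading gene, Xcl1, is on the precursor exhausted list, whereas 5 of its 10 leading genes (Ifng, Crtam, Ccl3, Ccl1 and Ccl4) are on the effector cytokine list. Cluster 7 had a median depth of 0.393 of its library's and is left to the closing part. UMIs were summed per cluster and library, and each cluster was compared with the mean of the others with the library as a block.

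Against the mean of the other clusters all 8 receptors were called higher in the granzyme-high-like cells. Of 11975 genes 23.6% were called higher there and 13% lower. The median log2 fold change of the 8 was 0.70, against 0.07 over all genes. Entpd1 led at 1.04 ± 0.07 (adjusted p = 1.4e-12), with 52.7, 51.7 and 105 CPM under anti-PD-1 (replicates 1 to 3) and 96.1 under IgG. Havcr2, encoding TIM-3, followed at 1.01 ± 0.05 (adjusted p = 3.4e-15), with 181, 188, 279 and 258 CPM. In each library this was its highest level among the 7 clusters with cells enough in all libraries, although over libraries the ranges overlapped, since cluster 3 reached 191 CPM in replicate 3 against 181 in the granzyme-high-like cells of replicate 1.

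The remaining 6 rose less. Ctla4 was at 0.84, Lag3 at 0.73, Tigit at 0.66, Cd101 at 0.41, Pdcd1 at 0.40 and Cd160 at 0.29. The last of these depended on the reference, since Cd160 was lower at -0.14 (adjusted p = 0.014) when the cells of all other clusters were pooled, and Cd101 did not pass without IgG (0.33, adjusted p = 0.054). The cluster was mixed, with the hypoxia genes Bnip3 and Aldoc also among its 10 leading genes.

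At a clustering resolution of 0.5 it came apart. Of its cells 46.4% fell into an unnamed cluster led by Ccl5 and Itgae, 34.2% into a hypoxic-like cluster led by Bnip3 and Prf1, and only 8.91% into the cluster of 688 cells that then took the granzyme-high-like name, led by Gzmf and Gzmd. In that last cluster Havcr2 (0.74) and Entpd1 (1.19) were still higher and Cd101 was lower (-0.65, adjusted p = 0.017). The other 5 lay between 0 (Cd160) and 0.40 (Tigit) and did not pass. The share of all genes called at this resolution was not counted, so that these calls stand without a background. Havcr2 had 237, 242, 369 and 333 CPM in the hypoxic-like cluster, against 228, 182, 251 and 219 CPM in the smaller granzyme-high-like cluster and 150, 153, 231 and 210 CPM in the unnamed one. Ctla4, at 653, 688, 341 and 268 CPM, was also above both in each library in the hypoxic-like cluster, and Cd101 was higher in the unnamed cluster (14.6, 13.8, 32.9 and 32.7 CPM) than in the other two. The rise of all 8 therefore describes the larger cluster at the main resolution, against the mean of the other clusters. For Cd160 it did not hold against pooled cells (-0.14). Its 215, 235, 249 and 246 CPM in the larger cluster lay under the 236, 258, 266 and 270 CPM of the whole libraries.

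Precursor exhausted-like cells, led by Ccr7 and Tcf7, carried a mixture. Of the 8 members 4 were higher and 3 lower, where 22.6% and 16.3% of all genes were. Havcr2 had 53, 42, 60 and 45 CPM in the same order of libraries, far under the 181 to 279 CPM of the granzyme-high-like cells. Its log2 fold change was -1.43 ± 0.08 (adjusted p = 1.1e-15). Entpd1 fell further, to 10.2, 9.29, 15.2 and 16.3 CPM (-1.82 ± 0.13, adjusted p = 5.3e-13), and Ctla4 was at -0.68 ± 0.10.

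In these same cells Cd160, the HVEM receptor, was higher (0.86 ± 0.06, adjusted p = 6.2e-14), with 299, 347, 367 and 319 CPM. Cd101 (0.71), Lag3 (0.36) and Pdcd1 (0.23) were higher too, while Tigit (0.25, adjusted p = 0.15) did not pass. The Pdcd1 call was lost without replicate 3 (0.18, adjusted p = 0.12), at a resolution of 0.5 (0.15, adjusted p = 0.072) and against pooled cells (0.13, adjusted p = 0.05). Among the 7 clusters with sums in all 4 libraries Cd101 had its highest mean here, 23.0 CPM ± 9.11 (SD, n = 4), although the ranges overlapped with the 19.5 ± 7.66 of granzyme-high-like cells. The precursor exhausted-like cluster thus had PD-1 and LAG-3 transcripts and few of TIM-3 and CD39.

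Effector memory-like cells, led by Klf2 and S1pr1 with Tcf7 also among their 10 leading genes, were the low end. None of the 8 was higher and 6 were lower, where 21% of all genes were higher and 14.6% lower, and the median of the 8 was -0.94 against 0.04 over all genes. Lag3 had 72.6, 68.2, 105 and 145 CPM, below every other state in each library (-1.56 ± 0.08, adjusted p = 1.1e-16). Havcr2 was at -1.37, Cd160 and Entpd1 at -0.94, Cd101 at -0.93 and Pdcd1 at -0.37. Ctla4 was at -0.21 (adjusted p = 0.13) and Tigit at -0.29 (adjusted p = 0.28). Without replicate 3 Cd101 did not pass (-0.55, adjusted p = 0.14), and Ctla4 was called lower without replicate 1 (-0.39, adjusted p = 0.011), without the filter on low counts, at a resolution of 0.5 and against pooled cells (-0.23 to -0.35, adjusted p between 0.00069 and 0.035). This cluster had a median depth of 0.64 of its library's, and its share ran from 1.99% in IgG to 6.2% in replicate 2.

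Cluster 3 stood apart by Cd160. The gene had 416, 442, 471 and 521 CPM there, above every other state in each library (1.46 ± 0.05, adjusted p = 4.1e-20). Havcr2 was higher at 0.41, whereas Entpd1 (-1.10), Cd101 (-0.83) and Ctla4 (-0.40) were lower, so that 2 of 8 were higher and 3 lower, against 31.5% and 25.4% of all genes. The Havcr2 call rested on the reference, for against the pooled cells of the other clusters it was at 0.01 (adjusted p = 0.79). Cd160 and Entpd1 moved in opposite directions in both cluster 3 and precursor exhausted-like cells.

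The cycling clusters differed less. In G1/S-like cells Entpd1 (0.61), Havcr2 (0.38) and Cd160 (0.22) were higher and none was lower, where 22.9% of all genes were higher and 12.1% lower. In histone S phase-like cells Entpd1 was higher (0.21) and Cd101 (-0.31), Lag3 (-0.27) and Cd160 (-0.25) were lower, against 24.6% and 15% of all genes. In G2/M-like cells Entpd1 (0.25) and Havcr2 (0.16) were higher and Tigit (-0.43) and Lag3 (-0.37) lower, against 19.7% and 11.3% of all genes. Several of these calls were weak. Entpd1 in histone S phase-like cells did not pass with RLE size factors (adjusted p = 0.085) or DESeq2 (adjusted p = 0.1), nor without replicate 1, 2 or 3, and Entpd1 in G2/M-like cells did not pass with RLE size factors (adjusted p = 0.066) or DESeq2 (adjusted p = 0.092), nor without replicate 2, 3 or IgG. Havcr2 in G2/M-like cells was lost under the same 5 alternatives (adjusted p between 0.074 and 0.38). Entpd1 there was 0.24 without replicate 2, 0.29 without replicate 3 and 0.01 at a resolution of 0.5. Tigit there was lost without replicate 1 (-0.38), 3 (-0.57) or IgG (-0.25) and at 3000 UMIs per cell (-0.20). Cd101 in histone S phase-like cells was lost without replicate 3 (-0.20) or IgG (-0.22) and with DESeq2 (-0.29). Cd160 in histone S phase-like cells was lost without replicate 3 (-0.18, adjusted p = 0.1), while Pdcd1 there was called lower with RLE size factors, DESeq2, a resolution of 0.5, thinning, cells of other types removed or pooled cells as the reference (-0.16 to -0.25). Against the pooled cells of the other clusters, Entpd1 was at -0.16 in histone S phase-like and -0.12 in G2/M-like cells, Havcr2 at -0.24 in G2/M-like and -0.04 in G1/S-like cells, and Cd160 at -0.20 in G1/S-like cells. Interferon response-like cells gave sums in replicate 3 and IgG only, 43 and 47 cells, in which Lag3 (0.72, 436 and 437 CPM) and Entpd1 (1.30, 121 and 102 CPM) were higher and none was lower, against 3.46% and 0.601% of all genes. Neither call held without replicate 3, although the values were as large (0.75 and 1.33, adjusted p = 0.054 and 0.1).

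**Figure D2:**
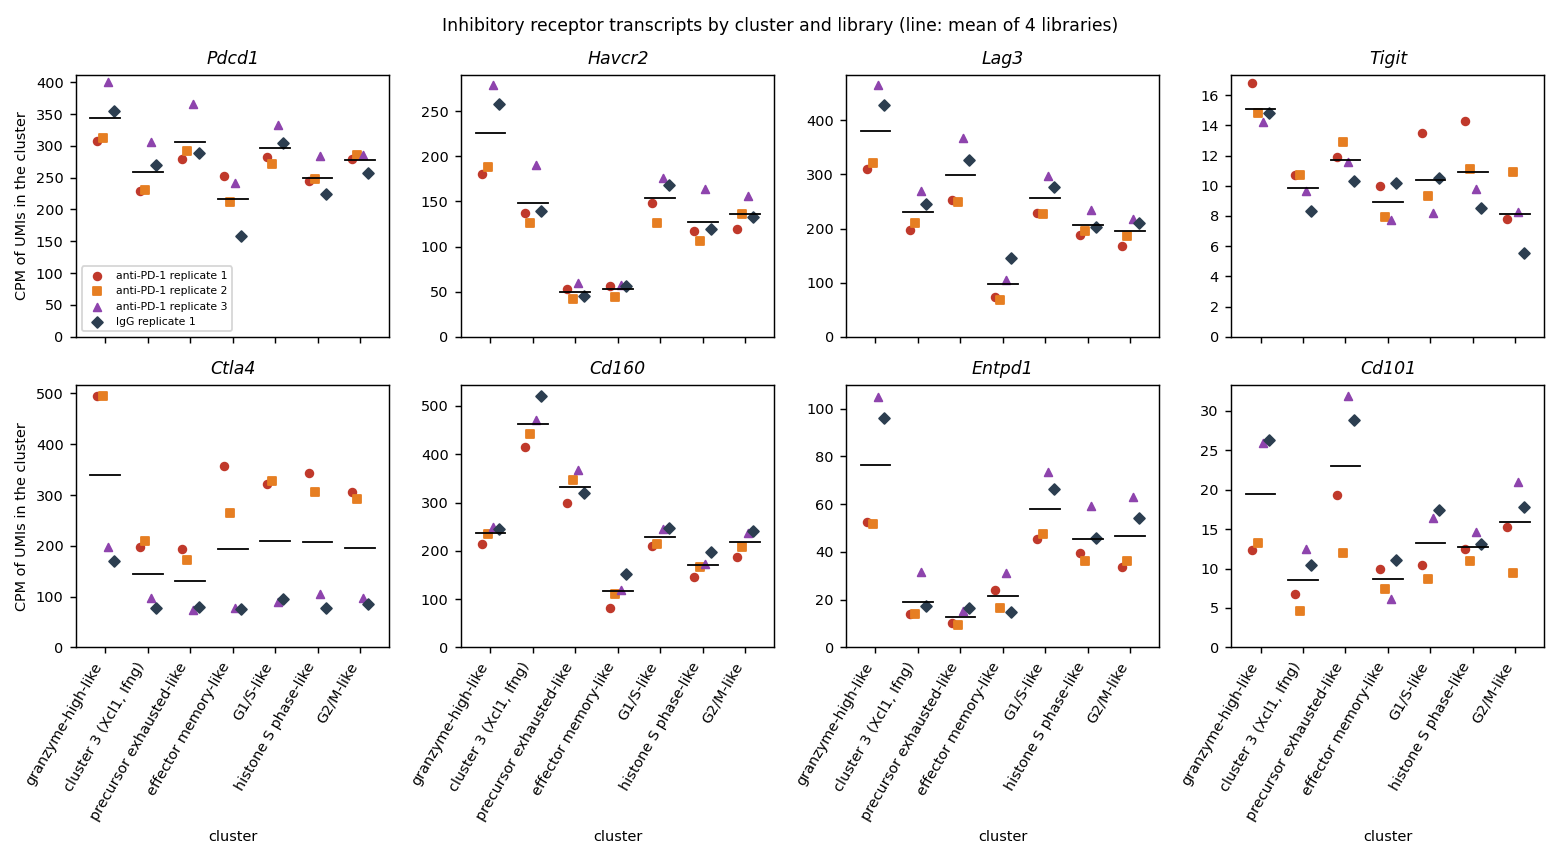
Levels of each receptor by cluster, in CPM of the UMIs of the cluster, for each library (points) with the mean of 4 libraries (lines). Havcr2 and Entpd1 drop to means of 50 and 12.7 CPM in precursor exhausted-like cells, Cd160 peaks at 462 CPM in cluster 3, and Ctla4 keeps its gap between libraries in every cluster.

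The span over states differed between members. The highest state mean was 6.02 times the lowest for Entpd1, 4.52 times for Havcr2, 3.98 for Cd160, 3.90 for Lag3, 2.68 for Cd101, 2.62 for Ctla4 and 1.86 for Tigit. Pdcd1 was the flattest at 1.59, from 344 CPM ± 42.9 (SD, n = 4) in granzyme-high-like to 216 ± 42.4 in effector memory-like cells, and the ranges of each pair of neighbouring states overlapped. For Ctla4 they overlapped throughout as well. In granzyme-high-like cells Ctla4 had 494, 495, 198 and 171 CPM, and in precursor exhausted-like cells 194, 172, 73.0 and 79.4. Replicates 1 and 2 were above replicate 3 and IgG in each of the 7 clusters, while all 4 libraries were highest in granzyme-high-like cells.

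Whether the state differences were others under IgG was tested with a cluster by treatment term. None of 56 member and state pairs passed by edgeR (0.00239% of all gene and state pairs did), and DESeq2 was not run for this term. By edgeR 11 of the 56 had an unadjusted p under 0.05, where 418 to 1383 of 11975 genes per named state did. Of the 11 pairs, 4 lay in effector memory-like cells, where 662 of 11975 genes had such a p. There Lag3 was lowered less in IgG (a difference of 0.68 ± 0.14, adjusted p = 0.22) and Pdcd1 more (-0.54 ± 0.14, adjusted p = 0.50), and neither passed. Both were called without the filter on low counts (0.68 and -0.55) and without replicate 3 (0.78 and -0.59). Without replicate 3 there were 9 calls, where 3.62% of all gene and state pairs were called. On simulated counts without a split between libraries this term recovered 36% of 2-fold changes, which may be more than in the real libraries.

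Genes around the receptors were counted in the same fit. In granzyme-high-like cells 12 of 16 tested genes on a list of other inhibitory receptors were higher and 1 lower (median 0.68), where 23.6% and 13% of all genes were, among them Ceacam1 (1.31 ± 0.22), a TIM-3 ligand and inhibitory receptor, and Pvrig (1.09 ± 0.14), a receptor for nectin-2, while Btla, another HVEM receptor, was lower (-0.45 ± 0.16). Of 19 genes of inhibitory signalling 10 were higher and 1 lower (median 0.16), with the phosphatase gene Ubash3b at 0.78 and the adaptor Sla2 at 0.37 on the one side and Socs1, a brake on cytokine signalling, at -0.25 on the other. Of 11 tested ligand genes 4 were higher and 1 lower, with Lgals3 at 0.74 and Hmgb1 at -0.41. In G1/S-like cells 8 of the 16 other inhibitory receptors were higher and 4 lower (median 0.08), where 22.9% and 12.1% of all genes were. In effector memory-like cells 4 were higher and 7 lower (median -0.23), against 21% and 14.6% of all genes. In cluster 3 they were 5 and 9 (median -0.85), against 31.5% and 25.4%. In these last clusters the shares called higher were near those over all genes, while the shares called lower were above them. Transcription factors of exhaustion took part in the clustering and are given without a test. In granzyme-high-like cells the log2 fold change was 0.91 for Maf, 0.68 for Prdm1, which encodes BLIMP-1, and -1.33 for Tcf7, the factor of precursor cells.

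Genes whose pattern was most like each receptor were taken by Pearson's correlation of log2 CPM over 32 cluster and library sums, centred within each library, among 7084 genes. The points share cells, depth and the cell cycle, so that the values describe these sums only. Havcr2 was nearest to Prf1, encoding perforin (r = 0.96), then to Gpd2 and Gnptab (0.899 each). Cd160 was nearest to Mrps6 (0.942), the chemokine gene Xcl1 (0.931) and Rpl5 (0.918), and Lag3 to Stat3 (0.917), Ubash3b (0.91) and Sdf4 (0.905). For Entpd1 they were Gm36723 (0.912), Fgl2 (0.911) and Ptpn12 (0.895), for Cd101 Nt5e, which encodes the ectoenzyme CD73 (0.871), Ptms (0.846) and Rasa1 (0.845), and for Ctla4 the glucose transporter gene Slc2a3 (0.869), Lyst (0.868) and Prdm1 (0.856). For Pdcd1 they were Litaf (0.875), Cd3e (0.85) and I730030J21Rik (0.822), and for Tigit Cd3e (0.783), Max (0.772) and Tnip3 (0.77). Among the members themselves the highest values were 0.815 for Ctla4 with Entpd1 and 0.764 for Havcr2 with Entpd1, and the lowest were -0.415 for Cd160 with Ctla4 and -0.414 for Cd160 with Entpd1.

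Because these members moved together or apart over the states, the DNA before their start sites was searched for 8 short motifs of factors known in T cell activation and exhaustion. The windows run from 250 bases before to 50 after each RefSeq start site (GRCm38.p6), and 7 of the 8 members matched, with 9 windows. The motifs were AP-1 (TGANTCA), NFAT (TGGAAA), NR4A (AAGGTCA), TCF/LEF (CTTTGA), RUNX (TGTGGT), ISRE (GAAA, any 2 bases, GAAA), T-box (GGTGTGA) and KLF (CCACNCCC), read on both strands. Capitals mark the matches. Havcr2 (chr11:46454681-46454980, plus strand), Entpd1 (chr19:40659520-40659819, plus strand) and Ctla4 (chr1:60908775-60909074, plus strand) are shown as members with similar patterns (r of 0.68 to 0.815 between them), and Cd160 (chr3:96814472-96814771, minus strand) as the one that ran against Entpd1 and Ctla4, though not against Havcr2 (r = 0.0433).
Havcr2: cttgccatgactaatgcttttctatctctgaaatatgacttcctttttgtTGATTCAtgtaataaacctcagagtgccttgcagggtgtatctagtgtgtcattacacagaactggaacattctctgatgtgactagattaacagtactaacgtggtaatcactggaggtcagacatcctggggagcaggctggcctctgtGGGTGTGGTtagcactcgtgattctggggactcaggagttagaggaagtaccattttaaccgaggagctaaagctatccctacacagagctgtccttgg
Entpd1: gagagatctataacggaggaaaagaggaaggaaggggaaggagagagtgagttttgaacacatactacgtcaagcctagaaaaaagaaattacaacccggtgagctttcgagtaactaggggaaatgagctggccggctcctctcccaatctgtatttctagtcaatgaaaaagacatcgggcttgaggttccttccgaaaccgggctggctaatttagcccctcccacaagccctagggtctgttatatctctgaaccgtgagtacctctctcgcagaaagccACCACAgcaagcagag
Ctla4: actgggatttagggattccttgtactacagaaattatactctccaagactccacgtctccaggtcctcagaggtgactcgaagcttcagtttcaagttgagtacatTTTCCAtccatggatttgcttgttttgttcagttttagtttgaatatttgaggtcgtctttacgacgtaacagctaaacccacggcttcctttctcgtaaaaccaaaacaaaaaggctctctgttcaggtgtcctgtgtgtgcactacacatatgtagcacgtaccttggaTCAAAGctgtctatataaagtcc
Cd160: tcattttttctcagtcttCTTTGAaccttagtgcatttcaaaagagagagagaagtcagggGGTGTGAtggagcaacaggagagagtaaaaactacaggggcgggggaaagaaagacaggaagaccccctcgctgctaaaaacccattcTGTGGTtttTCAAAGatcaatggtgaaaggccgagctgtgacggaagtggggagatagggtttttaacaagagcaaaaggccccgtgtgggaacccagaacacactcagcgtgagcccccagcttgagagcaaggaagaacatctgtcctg
The Havcr2 window held an AP-1 letter match, and overlapping RUNX and KLF matches 46 and 49 bases before the start site. Of all 32841 windows 7.81% held the AP-1 letters, 16.8% RUNX and 17.6% KLF. The Ctla4 window held 1 NFAT and 1 TCF/LEF match (21.4% and 16.0% of all windows). The Cd160 window held 2 TCF/LEF matches, 1 RUNX match and 1 T-box match (3.98% of all windows). Entpd1 had 1 RUNX match after its start site. A second Cd160 window (chr3:96829302-96829601) held overlapping RUNX and KLF matches, and a second Entpd1 window (chr19:40612116-40612415) held none of the 8. Pdcd1 held a KLF match, and Tigit and Cd101 a RUNX match each. NR4A (4.72% of all windows) and ISRE (3.44%) letters were in none of the 9. Havcr2, Entpd1 and Ctla4 shared no motif of the 8 across all 3 printed windows.

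In the genome the genes lie apart, except that Pdcd1 and Ctla4 are both on chromosome 1 (mm10, chr1:94038305-94052553 on the minus strand and chr1:60887000-60915832 on the plus strand) and Cd160 and Cd101 both on chromosome 3 (chr3:96798763-96829351 and chr3:100993529-101029556, minus strand). Havcr2 lies at chr11:46454935-46481255 and Entpd1 at chr19:40612366-40741602 on the plus strand, Lag3 at chr6:124904361-124911705 and Tigit at chr16:43648867-43664146 on the minus strand. On their own strands Ctla4 overlaps the pseudogene Rpl18-ps1 and Entpd1 overlaps 3 annotated genes. Reads there could be assigned in ways that cannot be checked from the counts. Cd160 overlaps Pdzk1 on the other strand.

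Exhausted cells are described as carrying several inhibitory receptors at once, so transcripts were counted within single cells. For each pair of members the cells with both transcripts, at 3000 UMIs, were divided by the number expected if the pair were independent within the library. Over the 28 pairs the ratio averaged 1.09 ± 0.0182 (SD, n = 4 libraries), from 1.07 to 1.11 per library. Of the pairs, 16 were above 1 in all 4 libraries and 2 were below 1 in all 4. The excess was therefore small for most pairs.

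Havcr2 and Entpd1 were found together most above expectation among the pairs without the scarce Tigit and Cd101, in 87, 91, 592 and 730 cells against 73.5, 70, 505 and 598 expected (ratios of 1.18, 1.30, 1.17 and 1.22). Ctla4 and Entpd1 had ratios of 1.11, 1.15, 1.23 and 1.24, and Havcr2 and Lag3 of 1.20, 1.09, 1.11 and 1.15. Pdcd1 had means from 1.03 with Entpd1 to 1.12 with Cd101. Since it was found in 54.8% of the cells, its ratios had less room above 1 than those of scarcer genes. Only 2.5% of 5050 other genes had a ratio with Pdcd1 above its mean of 1.06 with the members. Pairs of the scarce genes rested on few cells, such as Tigit and Cd101 with 4, 5, 13 and 21 cells.

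Cd160 was found with Pdcd1, Lag3 and Cd101 slightly above expectation in all 4 libraries (means of 1.04, 1.05 and 1.04), but with Entpd1 and Ctla4 below it. With Entpd1 it was found in 99, 84, 503 and 748 cells against 106, 110, 578 and 828 expected (0.935, 0.765, 0.870 and 0.903), and with Ctla4 the ratios were 0.941, 0.906, 0.871 and 0.891. These were the 2 pairs below 1 in every library, at 6000 UMIs as well (means of 0.912 and 0.956). Without thinning no pair was, with means of 1.0 for Entpd1 and 0.997 for Ctla4, nor for at least 2 UMIs per gene (1.0 and 0.974). Within clusters the mean over all pairs was 1.06 and Cd160 stayed below 1 with both genes, at 0.92 with Entpd1 and 0.93 with Ctla4. As a background, each member was paired with 5050 other genes, whose median ratio was 0.996 to 1.01. Of the 7 pairs of each member, those above the 90th percentile of its pairs with these genes numbered 6 for Pdcd1 and Lag3, 5 for Havcr2 and Ctla4, 4 for Entpd1, 2 for Tigit, 1 for Cd101 and 0 for Cd160.

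**Figure D3:**
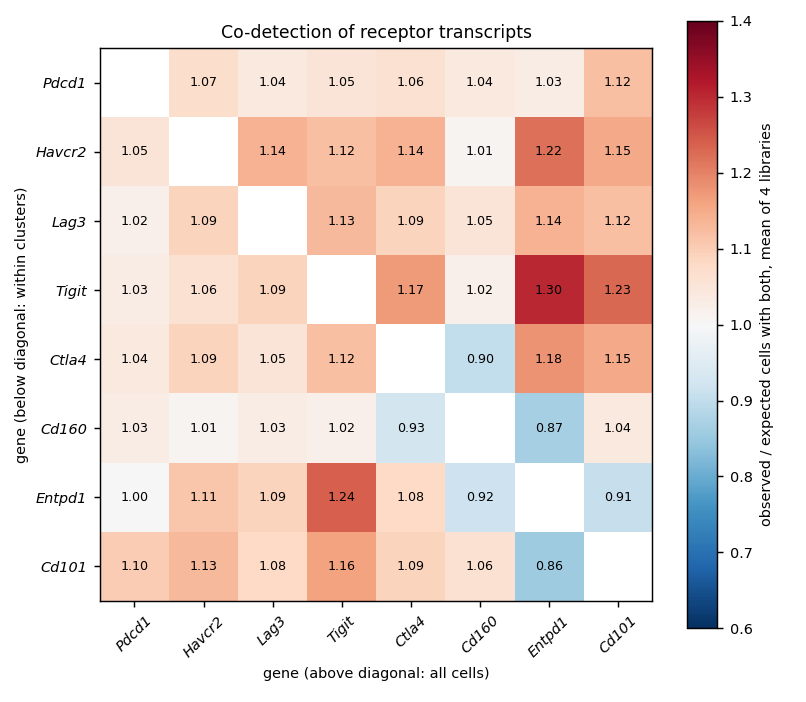
Ratio of observed to expected cells with both transcripts for each pair of receptors, mean of 4 libraries, over all cells (above the diagonal) and within clusters (below it). Havcr2 with Entpd1 is at 1.22 over all cells, and Cd160 is below 1 with Ctla4 (0.90) and Entpd1 (0.87).

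A cell held a mean of 2.48, 2.48, 2.61 and 2.39 of the 8 receptor transcripts in the 3 anti-PD-1 libraries and IgG, at 3000 UMIs per cell. Cells with 5 or more made up 5.84% (exact 95% interval 4.96 to 6.82), 5.08% (4.27 to 6.0), 7.47% (6.84 to 8.15) and 5.48% (5.06 to 5.92). If the 8 were independent within each library, 4.04%, 4.01%, 5.57% and 3.66% would be expected, and 4.63%, 4.56%, 6.33% and 4.35% if they were independent within each cluster, so that the second expectation lay between the first and the observed share in each library. In replicate 2 the second expectation also lay inside the exact interval of the observed share. Cells with none of the 8 were more frequent than expected too, at 5.29%, 4.16%, 5.08% and 6.66% against 3.53%, 3.55%, 2.88% and 4.24%. Independence within clusters gave 3.96%, 4.04%, 3.51% and 4.87%, which left replicate 2 with the smallest excess. By state the mean was 2.95 ± 0.0445 (SD, n = 4) in granzyme-high-like, 2.50 ± 0.0709 in G1/S-like, 2.36 ± 0.107 in cluster 3, 2.29 ± 0.106 in G2/M-like, 2.23 ± 0.101 in precursor exhausted-like, 2.12 ± 0.128 in histone S phase-like and 1.49 ± 0.114 in effector memory-like cells. The granzyme-high-like range (2.91 to 3.01) and the effector memory-like range (1.4 to 1.65) overlapped with no other.

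**Figure D4:**
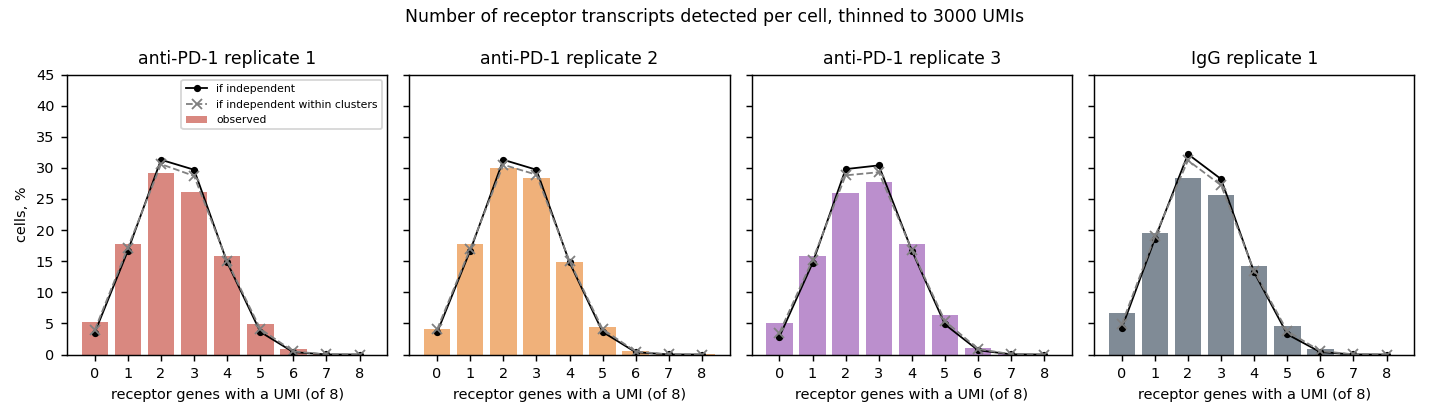
Share of cells, in percent, by the number of the 8 receptor genes with a UMI at 3000 UMIs per cell, in each library (bars), with the shares expected if the genes were independent (black) or independent within clusters (grey). Cells with 5 or more receptors, 5.08% to 7.47% of a library, exceed both expectations in all 4 libraries.

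The CRISPR library allowed each receptor to be compared between cells with a targeting guide and sgNT cells of the same libraries. Over 74 targets, 592 member and target pairs were tested and 1 was called, where 0.0405% of all gene and target pairs were. It was Ctla4 under the guide against Pik3cd, which encodes the catalytic subunit p110 delta of phosphoinositide 3-kinase in lymphocytes. Under sgPik3cd 1.45% of 8835 genes were called in all. The guide is given because it alone stands for the target.
Pik3cd guide: gttgtgtgttcaactaccgg
In sgPik3cd cells Ctla4 had 618, 536 and 258 CPM with anti-PD-1 and 182 CPM with IgG, against 324, 324, 140 and 104 CPM in sgNT cells. It was higher in 4 of 4 libraries, by 1.90, 1.65, 1.84 and 1.75 times, although the levels of the libraries themselves differed by more than that. The log2 fold change was 0.86 ± 0.16 (SE, adjusted p = 9.3e-05 by edgeR, 0.0022 by DESeq2).

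The cells numbered 25, 28, 210 and 236, and 1 guide stood for the target, so that the values of that guide and of the gene cannot be told apart. Its 20 bases, read from the deposited guide table, had no exact match in the annotated Pik3cd transcripts, whereas 232 of 245 guides matched a transcript of their target. Pik3cd transcripts were at 62.3, 31.8, 67.0 and 58.5 CPM in sgPik3cd and 51.2, 44.3, 58.3 and 60.2 CPM in sgNT cells, and a 3' tag does not show whether the gene was cut. Granzyme-high-like cells made up 44.0%, 35.7%, 41.0% and 39.0% of the sgPik3cd cells and 28.3%, 25.5%, 46.1% and 29.5% of the sgNT cells. Against sgNT cells weighted to the same clusters the Ctla4 ratios were 1.66, 1.6, 2 and 1.64. The other 7 members did not pass under sgPik3cd, with Lag3 nearest (0.40, adjusted p = 0.15).

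For each of the other targets all 8 members failed the test. The log2 fold changes of Pdcd1 spanned -0.22 (Pi4k2b) to 0.26 (Pigw), the narrowest range, with a median SE of 0.10. The lowest values of Havcr2 (-0.57), Lag3 (-0.49), Tigit (-0.80) and Entpd1 (-0.63) were all under the guides against Setd1b, a histone H3 lysine methyltransferase, and the lowest of Ctla4 (-0.43) and Cd101 (-0.79) under those against Kmt2c, another one. None of these 6 was called. Without the filter on low counts 3 of them were, Havcr2 (-0.63, adjusted p = 0.00077) and Lag3 (-0.55, adjusted p = 0.00027) under Setd1b and Ctla4 under Kmt2c (-0.46, adjusted p = 0.0073), and Havcr2 under Setd1b was also called without replicate 1 (-0.73, adjusted p = 0.016). Without the filter the calls over all genes and targets rose as well, from 265 to 2337 (0.158% of pairs). On simulated counts the fit recovered 84% of 2-fold and 28% of 1.5-fold changes, so that changes under 1.5-fold were mostly not detectable at this depth.

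**Figure D5:**
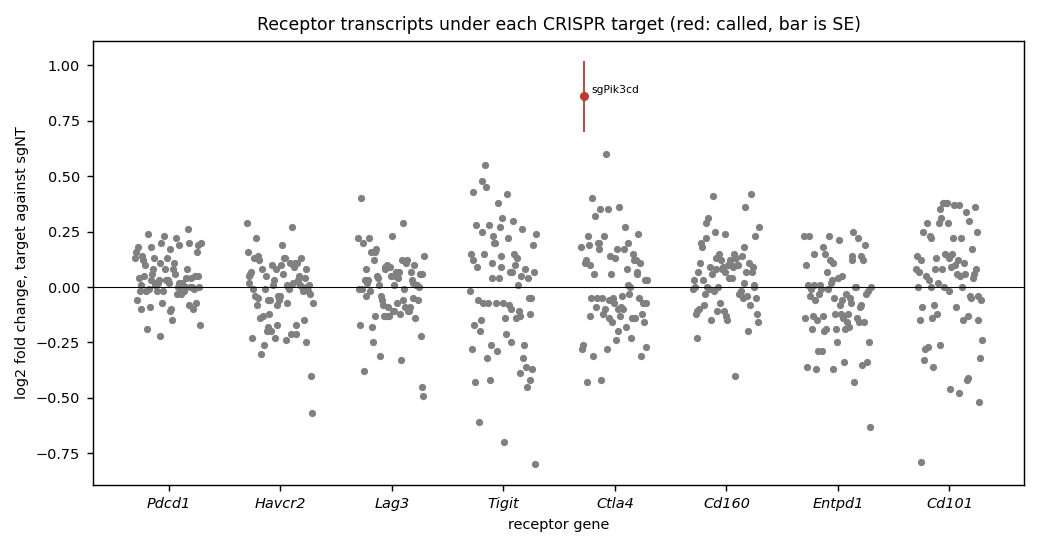
Log2 fold change of each receptor transcript between the cells of a CRISPR target and sgNT cells, for 74 targets (points, spread sideways for legibility). The 1 called pair, Ctla4 under sgPik3cd at 0.86 with its standard error of 0.16, is in red, and Pdcd1 spans only -0.22 to 0.26.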

How the data were processed

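The deposited matrices hold UMI counts per gene and cell barcode, not normalised, which the authors produced by Cell Ranger 3.1.0 on mm10 (submitters' processing notes), together with their guide calls per cell. The 8 members, the pathway lists and the tests were chosen with earlier results of these data known.

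Barcodes with exactly 1 called guide, log10 UMI counts no more than 3 median absolute deviations from the median of their library and at most 10% mitochondrial UMIs were kept. No doublet caller was run beyond the single-guide rule. Clusters were made in Seurat 5.3.0 (2000 variable genes without the members, pathway lists except regulators, sex-linked, mitochondrial, TCR variable and targeted genes, canonical correlation integration, 15 components, resolution 0.3). A cluster took a marker list's name when the list held its leading gene and most marker genes among its 10 leading genes.

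Counts were summed per library, per cluster and library (20 cells or more) or per target and library (10 cells or more, at least 3 libraries) and tested with edgeR 4.0.16 by quasi-likelihood, with filterByExpr, TMM, the library as a block where sums share libraries, and Benjamini-Hochberg adjustment over all genes of each contrast at 0.05. Each target was compared with nontargeting cells. The lone IgG library was taken to have the spread of the others. Errors are SE of log2 fold changes or SD over libraries. Fits were tested on simulated data, in which every gene had the same spread and no split between libraries was put in. Alternatives were RLE size factors, DESeq2 1.42.0, no filter, libraries left out, other cell filters, resolution 0.5 and other depths. Named genes were all members, the 3 genes most like each (genes above 10 CPM), the 2 largest called rises and falls of each list in granzyme-high-like cells, and targets with a called member. R 4.3.3, Python 3.11.15 and numpy 2.4.6 were used. Intervals cover counting error only. Gene positions came from a GRCm38 annotation, promoter windows from RefSeq, and the annotation release used for counting was not given in the sources used here.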

Additional observations from a re-analysis of the deposited data

How the results depend on the processing

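Counts of called members are given here with their alternatives. Between treatments the count of 0 stayed under every alternative except without replicate 3, and leaving out libraries gave 0 to 4. Between replicates 1 and 2 and the other libraries, 5 calls, Ctla4 included, became 3 to 6 with 1 library left out, the lowest without replicate 1 or 2. Each of these fits leaves 1 library on one side. Over all genes, too, the fewest calls came without replicate 1 or 2, so that the fall there was not particular to the members. For single states the share over all genes was counted in the main fit only, so that the member counts of their alternatives stand without a background. At a resolution of 0.5 there were 3 calls in granzyme-high-like (main 8), 1 in G1/S-like (main 3) and 4 in interferon response-like cells (main 2). In interferon response-like cells there were 5 without a filter on low counts, 4 against pooled cells and 1 at 3000 UMIs per cell, and 0 to 2 with a library left out. G2/M-like cells had 4 calls, 2 with RLE size factors or DESeq2, 1 at 3000 UMIs per cell and 1 to 3 with a library left out, and histone S phase-like cells had 4, or 1 to 3, the lowest without replicate 3. For state by treatment there were 3 calls without a filter (0.625% of all pairs) and 0 to 9 with a library left out, the highest without replicate 3. For the targets there were 10 calls without a filter, where 0.158% of all pairs were called against 0.0405% in the main fit. They were Ctla4 and Lag3 under Pik3cd and Kmt2c, Havcr2 and Lag3 under Setd1b, Ctla4 under Pi4k2b and Pla2g4b, Lag3 under Cyp2j13 and Cd160 under Dpm2. With a library left out there were 1 to 2. Ctla4 under sgPik3cd was called in every alternative run, at 0.78 to 1.03. Mean co-detection was 1.06 at 6000 UMIs, 1.07 without thinning, 1.06 within clusters and 1.24 for at least 2 UMIs per gene.

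Single log2 values that were called by either setting turned under 2 alternatives. At a resolution of 0.5 they were 0 for Cd160 and -0.65 for Cd101 in granzyme-high-like cells, -0.03 for Cd160 in G1/S-like, -0.21 for Havcr2 in histone S phase-like and -0.14 for Havcr2 in G2/M-like cells. Against pooled cells Cd160 was at -0.14 in granzyme-high-like, -0.2 in G1/S-like and -0.24 in G2/M-like cells, Havcr2 at -0.04 in G1/S-like, -0.38 in histone S phase-like and -0.24 in G2/M-like cells, Entpd1 at -0.16 in histone S phase-like and -0.12 in G2/M-like cells, and Lag3 at -0.15 in cluster 3. The cause was not tested. Of the other single values, 889 kept their direction and call or stayed within their spread, 54 lost a call, 44 gained one and 16 moved by more than their spread, 15 of these as shares of cells at another depth and 1 as the mean level of Cd160 over all barcodes. No paired analysis was possible because the IgG group has 1 library and shares its number with 1 anti-PD-1 library only. With the shared name of replicates 1 and 2 as a term, 283 genes in place of 0 and still 0 members were called between treatments, and the uncalled values of Entpd1, Havcr2, Lag3 and Cd101 (-0.37 to 0.16) turned. Depth per cell limits the scarce genes Tigit and Cd101 most.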

Other observations

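Cluster 7, left out of the account of the states, held 354 cells led by Gm42418 and Lars2 and gave sums in replicate 3 and IgG only (122 and 218 cells). Of the 8 members 3 were higher and 3 lower there, where 16.9% of all genes were higher and 22.4% lower. Havcr2 had 309 and 246 CPM and Lag3 462 and 422, both called higher than the mean of the other clusters (log2 fold changes of 0.68 and 0.29), as was Entpd1 (0.46), while Cd160 had 112 and 108 CPM and was lower (-1.56), as were Tigit (-1.16) and Pdcd1 (-0.63). In granzyme-high-like cells of the same libraries Havcr2 had 279 and 258 CPM, so that cluster 7 was above them in replicate 3 and below them in IgG.

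Barcodes without regard to the guide call or filters were summed as well. Over all barcodes Ctla4 had 385, 363, 144 and 114 CPM in anti-PD-1 replicates 1, 2 and 3 and IgG, Pdcd1 285, 292, 349 and 292, Havcr2 150, 140, 212 and 174, and Cd160 217, 237, 252 and 256, so that the order of the libraries for Ctla4 was that of the single-guide cells.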
